A study of Mus musculus with 176 samples.

Results

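The cells described here were P6- CD4 T cells, that is, antigen-experienced T cells of an immunized mouse that did not bind the tetramer of the ApoB peptide P6 on the MHC class II molecule I-Ab. They were chosen by the negative tetramer sign of the cell and by 3 limits on its deposited counts: at least 500000 reads, at least 2000 genes with a read, and under 10% of reads on mitochondrial genes. Of the 176 cells of the series, 32 had bound the tetramer (P6+) and the others had not. After the limits 161 cells remained, all 32 P6+ cells among them, and the set described here is these 161 less the 32. It holds 89.6% of the sorted P6- cells (95% interval 83.4 to 94.1%), since 15 failed, 7 by reads and 8 by mitochondrial share. The cell with the fewest reads among those kept held 522188, and the cell just under the limit held 487916. The highest mitochondrial share kept was 9.46%, and the lowest share over the limit was 11.9%.

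The study set out to describe CD4 T cells that respond to a vaccine peptide of apolipoprotein B, the core protein of low-density lipoprotein, and the P6- cells served there as the comparison. Each cell was sorted into its own well and sequenced over full-length transcripts by Smart-Seq2. All cells came from female C57BL/6J mice with no engineered allele, injected into muscle with P6 in complete Freund's adjuvant at 7 weeks of age and in incomplete Freund's adjuvant at 9 weeks. The inguinal and para-aortic lymph nodes that drain the injection were taken at 11 weeks. CD4 T cells were enriched by removal of other cell types, held with the kinase inhibitor dasatinib while the tetramer was added, and sorted on TCRβ, CD4, high CD44 and a further surface marker. The study names 1 mouse as the source of the P6+ cells, the labels give no animal for any cell, and no group came from an animal without the vaccine, so that these cells are a sample of the antigen-experienced lymph node pool after adjuvant and peptide. Cells of 1 mouse are not replicates. No test was therefore made between groups of cells, and the intervals given are exact binomial intervals on numbers of cells. They cover counting error only, not the spread between mice. Reads amplified without molecular identifiers are not independent molecules.

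CD4 T cells that have met antigen can take up helper fates, each under a lineage-defining transcription factor: TH1 under T-bet (Tbx21), TH2 under GATA3 and TFH under BCL6, while regulatory T cells (Tregs) depend on FOXP3. Naive and central memory cells use the chemokine receptor CCR7 to enter lymph nodes and the lipid receptor S1PR1 to leave them. The IL-7 receptor (Il7r) sustains naive and memory cells, and Tregs typically carry little of it.

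The P6- cells held 522188 to 3401372 reads on genes, with a median of 1500457, and 2002 to 5380 genes with a read, with a median of 3432. A gene was called detected in a cell at 10 or more reads, because genes abundant in some cells had 1 to 9 reads in many others (Ccr7, for example, in 52). At 10 reads a cell held 230 to 3105 genes, with a median of 1225, and only 10 genes were detected in every cell. Detection was therefore sparse, and every share of cells below is a share in which the transcript was captured, not the share of cells that use the gene. A program was called in a cell where its anchor gene and at least 2 other genes of its list were detected. The number of list genes detected per cell ran with the number of genes seen in the cell (Spearman's rho 0.37 over the P6- cells) more than with its reads (rho 0.041), and both counts come from the same library.

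The label was checked first. T cell receptor and CD3 transcripts were present in nearly all cells: at least 1 of Cd3e, Cd3d, Cd3g, Trac, Trbc1 and Trbc2 was detected in 95.3% (95% interval 90.2 to 98.3%). Trac, the constant part of the α chain, was detected in 82.9% of cells, Trbc2 of the β chain in 79.8%, the kinase Lck in 76%, Cd2 in 76.7%, Ptprc (CD45) in 87.6% and Cd3e in 63.6%. At least 3 of the 13 identity genes were found in 93.8% of cells, and in 2 cells none was. The genes of the sorting gate itself were seen in fewer cells. Cd4 was detected in 39 cells (30.2%, 95% interval 22.5 to 38.9%) and Cd44 in 30 (23.3%, 95% interval 16.3 to 31.5%), although every cell had been sorted by staining for both proteins, and both transcripts were detected together in 13. Cd4 had 1 or more reads in 83.7% of cells. Where Cd4 was detected its level ran from 19.1 to 5221 counts per 1000000 reads (cpm), with a median of 841, and in 69 more cells it held 1 to 9 reads.

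The plot of reads per cell shows how the threshold divides such genes.

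**Figure D1:**
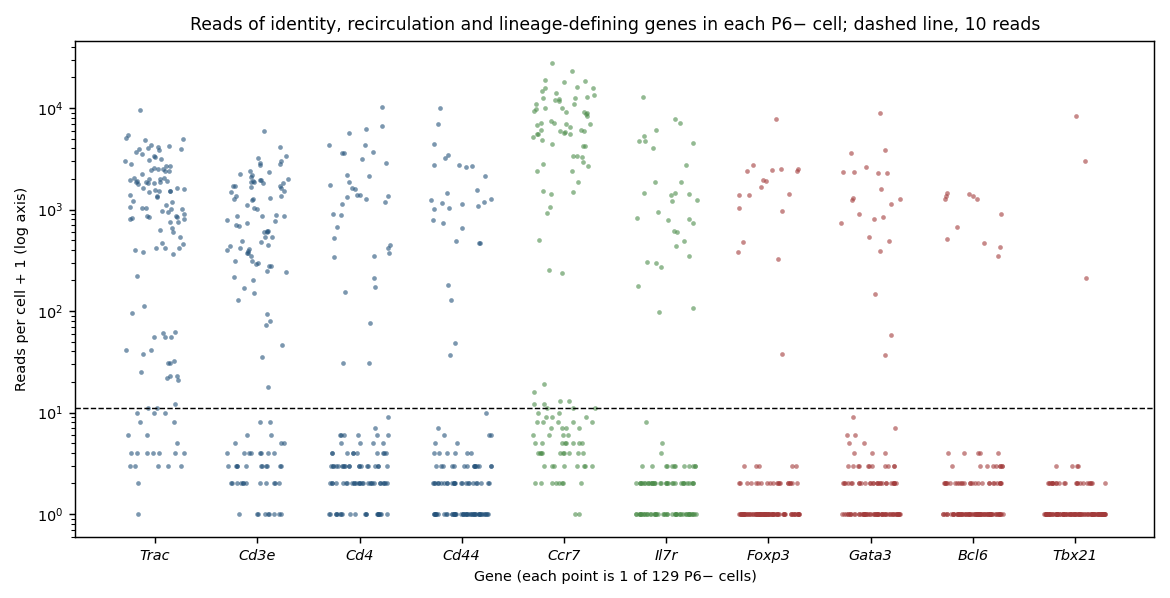
Reads per cell plus 1 on a log axis (vertical) for 10 genes (horizontal), with 1 point for each P6- cell, jittered sideways, and a dashed line at 10 reads. Foxp3, Bcl6, Tbx21 and Il7r fall into a group of cells well above the line and a group below it; Foxp3 lies at or above the line in 19 cells and at 1 to 9 reads in 25, and Ccr7 has 9 cells between 10 and 99 reads.

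Transcripts of other cell types were few, apart from Ighm and Cd74 of the B cell list. None of 9 myeloid genes and none of 5 erythroid genes was detected in any cell. Cd8a was detected in 0 cells and Cd8b1 in 2, the γδ T cell genes in 1 cell and Zbtb16, a factor of innate-like T cells, in 1. Of 10 genes on the B cell list, 4 were detected: Ighm (the constant region of IgM) in 30 cells, Cd74 (the invariant chain) in 17, Ebf1 in 2 and Igkc in 1. The B cell receptor subunit Cd79a had no read, and Ms4a1, Cd79b and the class II genes H2-Aa, H2-Ab1 and H2-Eb1 had at most 3 reads in any cell. The summed level of the B cell list ran from 0 to 10663 cpm, with a median of 2.16 cpm, and 1 cell held 3 or more of its genes.

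The cells did not share 1 receptor. Of 35 Trbv genes, which encode the variable part of the β chain, 23 were detected in some cell, and 79.8% of cells held at least 1. Trbv13-2 was detected in 26 cells, Trbv12-2 in 16, Trbv3 in 14, Trbv19 in 9 and Trbv2 in 8. Members of the Trbv12 and Trbv13 families are nearly identical in sequence, so their reads may be split between them. Reads per gene do not show the joined chain, and the study assembled it from the raw reads. For the 4 segments seen in most cells, the β junctions below are each the first productive one that the study lists for a P6- cell, shown to let the difference in junction length and sequence be seen. They are printed 5′ to 3′ in lower case, with no part marked.
Trbv13-2 joined to Trbj2-4: ccagcaggggacgtcaa
Trbv12-2 joined to Trbj2-2: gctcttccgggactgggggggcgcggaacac
Trbv3 joined to Trbj1-2: gcagccagacagggaactc
Trbv19 joined to Trbj2-7: agtatggtgggggggaactcct
Trbv13-2 joined to Trbj2-4, largest P6+ clonotype: ggtgacagggggcgacaaaa
The P6- junctions were 17, 31, 19 and 22 bases long, and each P6- cell shown used another J segment. The last line is the junction that the study lists first among the P6+ cells. It has the same V and J segments as the first P6- cell shown, so that cells of both tetramer signs used this pair of segments. It is 20 bases long and differs from that of the P6- cell in base sequence. The amino acids that the junctions encode were not compared.

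A lineage-defining factor was detected in a minority of the cells. None of Foxp3, Tbx21, Gata3 and Bcl6 was detected in 82 cells (63.6%, 95% interval 54.6 to 71.9%), 1 factor in 38, 2 in 8 and 3 in 1. Gata3 was detected in 23 cells (17.8%, 95% interval 11.7 to 25.5%), Foxp3 in 19 (14.7%, 95% interval 9.11 to 22.0%), Bcl6 in 12 (9.30%, 95% interval 4.90 to 15.7%) and Tbx21 in 3 (2.33%, 95% interval 0.482 to 6.65%). Foxp3 was the only factor in 14 of its cells, was joined by Gata3 in 4 and by Gata3 and Bcl6 in 1. Gata3 stood alone in 15 cells and Bcl6 in 8. Gata3 with Bcl6 was seen in 2 cells, Tbx21 with Bcl6 in 1 and Tbx21 with Gata3 in 1. No cell held Foxp3 with Tbx21, and Foxp3 with Bcl6 was seen only in the cell with 3 factors. The cells without a factor were not shallower: their median was 1561432 reads and 3449.5 genes, beside 1448400 reads and 3415 genes in the 47 cells with a factor.

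With the list genes added, the Treg program was called in 19 cells (14.7%), TFH in 9 (6.98%, 95% interval 3.24 to 12.8%), TH2 in 4 (3.10%, 95% interval 0.851 to 7.75%) and TH1 in 2 (1.55%, 95% interval 0.188 to 5.49%). All 19 Foxp3 cells met the rule, so that the Treg call is the detection of Foxp3. With or without the anchor, 3 or more list genes were detected in 59.7% of cells for Treg, 38.8% for TFH, 3.88% for TH2, 6.20% for TH1 and 49.6% for memory. In 99 cells (76.7%, 95% interval 68.5 to 83.7%) none of these 4 was called, in 26 just 1, and in 4 more than 1. The memory program was called in 24 cells (18.6%, 95% interval 12.3 to 26.4%). Helper, regulatory and memory programs together left 84 cells (65.1%, 95% interval 56.2 to 73.3%) without a call. The programs were not exclusive: of the 19 Treg cells, 8 also met the memory rule. The genes of the naive and TH17 lists are described one by one and were not made into a program.

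**Figure D2:**
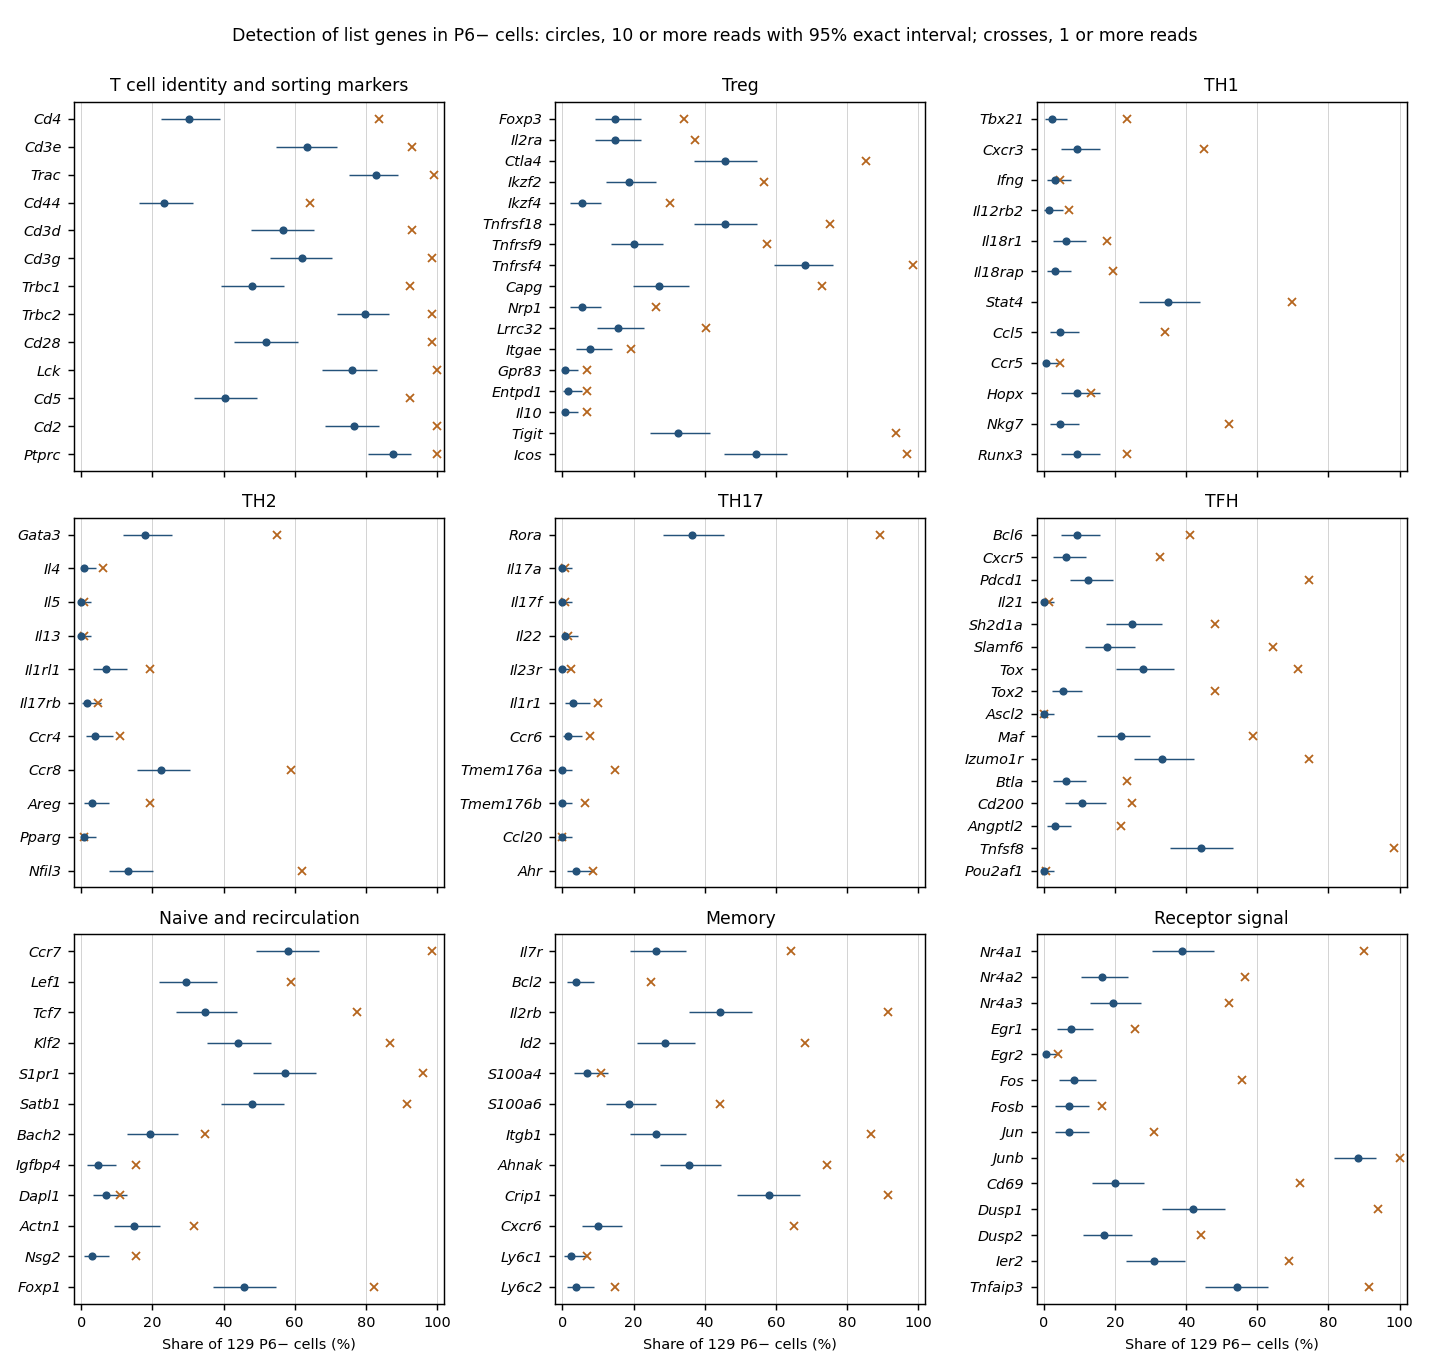
Share of the P6- cells in percent (horizontal) in which each gene of 9 lists (vertical) had 10 or more reads (circles, with 95% exact binomial interval) or 1 or more reads (crosses). Of the TH17 genes shown, only Rora is seen in more than 5 cells at 10 reads. Ccr7 and S1pr1 are seen in 58.1% and 57.4%, and Junb in 88.4%.

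Foxp3 (chromosome X of GRCm38, 7573644 to 7595245, plus strand) encodes the factor that defines Tregs. At least 1 read was counted in 34.1% of cells. Of these cells, 25 held 1 to 9 reads and 19 held 10 or more, with 100 or more in 18. Among the 19, the lowest level was 28.8 cpm, the median 1117 cpm and the highest 4490 cpm. Few cells thus lay near the threshold. Their depth was close to that of the rest, with a median of 1443564 reads and 3415 genes against 1538460 reads and 3446 genes in the other 110.

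Of the 16 other genes of the Treg list, the Foxp3 cells held 2 to 11, with a median of 8, and the other cells 0 to 11, with a median of 3. At least 5 were detected in 16 of 19 Foxp3 cells (84.2%, 95% interval 60.4 to 96.6%) and in 26 of 110 others (23.6%, 95% interval 16.1 to 32.7%). Genes of the Treg list thus also occurred together in cells where Foxp3 was not detected. For the pooled reads, 11 of the 16 genes passed the filter of 10 reads in at least 10 cells, and 9 of these 11 were at least 2-fold higher (log2 ratio of 1 or more) in Foxp3 cells, where 16.2% of all 4628 genes passing the filter were. The median log2 ratio was 1.74 over the 11 list genes and -0.14 over all genes. Itgae met the filter only with its Foxp3 cells. With the filter set on the cells without Foxp3 alone, a choice made after seeing the data, 8 of 10 list genes and 12.4% of all genes were at least 2-fold higher.

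Ikzf2, which encodes the factor Helios, was detected in 12 of 19 Foxp3 cells and 12 of 110 others, at pooled levels of 890 and 70.7 cpm, a log2 ratio of 3.64. Itgae (CD103, an integrin that binds epithelial cadherin) was detected in 7 of 19 and 3 of 110 cells, at 510 and 53.4 cpm (log2 ratio 3.23). These 2 genes had the largest ratios among the 11. Lrrc32 (GARP, which holds latent TGF-β on the Treg surface) was detected in 10 of 19 and 10 of 110 cells with a log2 ratio of 2.29, and Capg, an actin-capping protein, in 12 of 19 and 23 of 110 with 2.41.

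Other receptors of the list are found on Tregs and on activated helper cells alike. The inhibitory receptor Ctla4 was detected in 16 of 19 Foxp3 cells and 43 of 110 others (log2 ratio 1.72), and the TNF receptor family members Tnfrsf18 (GITR) in 17 and 42 (1.25), Tnfrsf4 (OX40) in 19 and 69 (1.14) and Tnfrsf9 (4-1BB) in 9 and 17 (1.83). Tnfrsf4 was the list gene detected in all 19 Foxp3 cells. Il2ra, which encodes the high-affinity IL-2 receptor chain CD25, was detected in 8 of 19 Foxp3 cells and 11 of 110 others (log2 ratio 1.74). The costimulator Icos, in 13 and 57 cells, and the inhibitory receptor Tigit, in 9 and 33, were not 2-fold apart, at log2 ratios of 0.28 and -0.27. The remaining 5 list genes were detected in 7 cells or fewer each. Nrp1 and Ikzf4 were each seen in 1 Foxp3 cell and 6 others, and Il10, a suppressive cytokine, in 0 Foxp3 cells and 1 other.

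**Figure D3:**
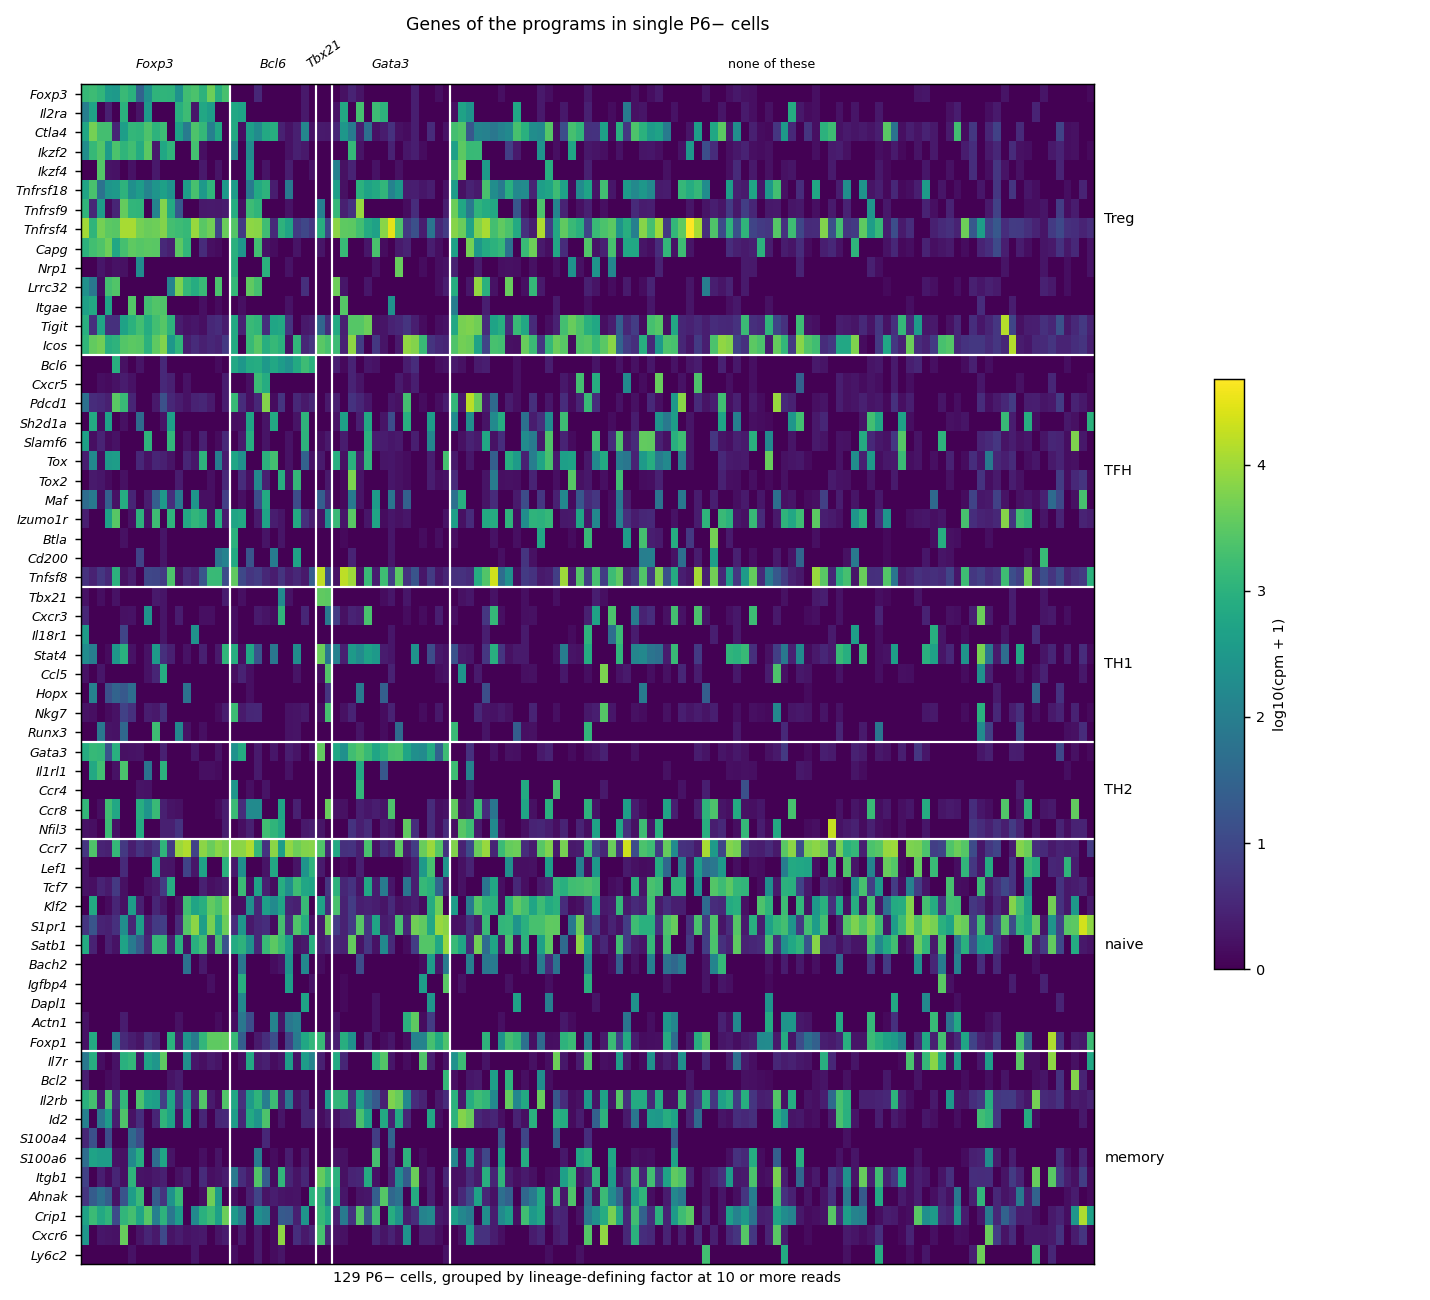
Level of program genes (rows, grouped by list) in each P6- cell (columns, grouped by the lineage-defining factor at 10 or more reads), in colour as log10 of cpm plus 1. A cell with more than 1 factor stands in the first group it meets from the left, and rows show genes detected in at least 5 cells plus the detected factors. The 19 Foxp3 cells on the left hold Tnfrsf4 in all cells and Ikzf2 in 12, while Ccr7, S1pr1 and Crip1 appear across all large groups.

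Genes of other lists were also detected unequally in Foxp3 cells and the rest, and those given here were picked after their values were seen. Klrg1, a receptor of terminally differentiated lymphocytes, was detected in 6 of 19 Foxp3 cells and 4 of 110 others (log2 ratio 2.53), and met the filter only with its Foxp3 cells. Il1rl1, the IL-33 receptor ST2, was detected in 5 and 4 (log2 ratio 3.80), and the protease gene Gzmb in 4 and 4 (log2 ratio 4.33, with 64.9% of the Foxp3 cells' reads in 1 cell), and both genes were under the filter of 10 cells. Maf was detected in 8 of 19 and 20 of 110 cells and Crip1 in 18 and 57. In the other direction Tcf7, which encodes the factor TCF-1 of naive, memory and TFH cells, was detected in 1 of 19 Foxp3 cells and 44 of 110 others (log2 ratio -3.57), and the integrin Itgb1 in 2 and 32 (-3.07). Ighm, in 10 and 20 cells (2.18), and Cd74, in 9 and 8 (2.10), were detected in a larger share of the Foxp3 cells as well. Cd74 met the filter only with its Foxp3 cells, and Cd79a had no read in any cell. The part of these B cell list genes in the Treg values was not tested. Among all genes detected in at least 10 of the 19 Foxp3 cells, the 5 highest ratios were those of Ikzf2, Capg and Lrrc32 from the list and of Mier1 (2.48) and Smdt1 (2.46) from outside it.

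Gata3 (chromosome 2, 9857078 to 9890034, minus strand) encodes the TH2 factor, which Tregs and other T cells also use. It was detected in 23 cells at 14.2 to 3629 cpm, with a median of 799 cpm, and 5 of these were Foxp3 cells. The other TH2 genes were mostly missing: the Gata3 cells held a median of 0 of the 10 other genes, and the program was called in 4 of them, of which 2 were also Treg cells. The cytokine Il4 was detected in 1 cell, at 1045 reads, and that cell had no detected Gata3. Il5 and Il13 had 1 read each over all cells. The chemokine receptor Ccr8 was detected in 29 cells, the factor Nfil3 in 17, Il1rl1 in 9, Ccr4 in 5 and the growth factor Areg in 4. Only Ccr8 and Nfil3 passed the filter, and 0 of these 2 were 2-fold higher beside Gata3, where 13.2% of all genes were. Ccr8 was found in 5 of 23 Gata3 cells (21.7%) and in 22.6% of the others.

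Tbx21 (chromosome 11, 97098071 to 97115331, minus strand) was detected in 3 cells, with 8416, 2984 and 210 reads. The cells carried different partners. The cell with 8416 Tbx21 reads held 870 reads of the cytokine Ifng and 10403 of the signal transducer Stat4, the next held 2451 of the chemokine Ccl5, 1885 of Nkg7, 75 of the receptor Cxcr3 and 67 of Stat4, and the last held 1419 of Cxcr3 and no other TH1 gene at 10 reads. Of the 4 TH1 genes that passed the filter, 2 were at least 2-fold higher in these 3 cells, beside 14.7% of all genes, and without the cell with the most reads of each gene 0 of the 4 were, beside 2.33% of all genes. The other 2, Hopx and Runx3, were lower and detected in 0 of the 3 cells, at pooled levels of 0.865 and 0 cpm beside 4.64 and 37.2 cpm in the other cells. The median log2 ratio was -0.048 over the 4 genes and -3.47 over all genes, so that most genes were lower in these 3 cells. Among all P6- cells, Stat4 was detected in 45, Cxcr3, Runx3 and Hopx in 12 each, Il18r1 in 8 and Ifng in 4. Stat4 and Cxcr3 thus lay mostly in cells without detected Tbx21.

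Genes of TH17 cells, the helper fate that secretes IL-17, were scarce. The cytokine genes Il17a and Il17f had 1 read each, Il23r at most 4 in a cell, and the chemokine gene Ccl20 had 0 reads in the P6- cells, which, at a limit of 3 counts, allows a share of cells with a read of up to 2.33% and a pooled level of up to 0.0147 cpm, and sets no limit on the cells that use the gene. Rora, a nuclear receptor that many memory and regulatory cells use, was detected in 47 cells (36.4%, 95% interval 28.1 to 45.4%). Ahr was detected in 5 cells, Il1r1 in 4, Ccr6 in 2 and Il22 in 1. Detection of the TH17 genes given here thus rested mostly on Rora.

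Bcl6 (chromosome 16, 23965052 to 23988852, minus strand), the factor of TFH cells, was detected in 12 cells at 235 to 1596 cpm, with a median of 666 cpm, and 9 of them met the TFH rule. The B cell follicle receptor Cxcr5 was detected in 8 cells, of which 2 were Bcl6 cells. The receptor PD-1 (Pdcd1) was detected in 16 cells, of which 3 were Bcl6 cells, and Cxcr5 and Pdcd1 were detected together in 1. The TFH cytokine Il21 was detected in 0 cells and Ascl2 had no read. Several list genes were broad over the P6- cells: Tnfsf8 (CD30 ligand) was detected in 57 cells, the folate-receptor family member Izumo1r in 43, the factors Tox in 36 and Maf in 28, and the signalling adaptor Sh2d1a in 32. Of the 8 list genes that passed the filter, 2 were at least 2-fold higher beside Bcl6, namely Cd200 (log2 ratio 3.01) and Pdcd1 (1.61), where 14.3% of all genes were. Slamf6 (-1.23) and Tnfsf8 (-1.69) were lower, the latter being detected in 4 of 12 Bcl6 cells. By the mean of log2 values 3 of the 8 were at least 2-fold higher, beside 32.4% of all genes. Without the cell with the most reads of each gene the number was 1, beside 4% of all genes, and 60.4% of the Cd200 reads and 53.7% of the Pdcd1 reads of the Bcl6 cells lay in 1 cell. Bcl6 cells had a median of 1439562 reads and 3713 genes and the other cells of 1540738 reads and 3395 genes, and the part of the gene number in these values was not tested.

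Genes of lymph node entry and exit were detected in many cells. Ccr7 was detected in 75 cells (58.1%, 95% interval 49.1 to 66.8%), with a median of 4057 and a maximum of 20796 cpm where detected. S1pr1 was detected in 74 cells and both genes together in 48. The chromatin organizer Satb1 was detected in 62 cells, the factors Foxp1 in 59, Klf2 (which drives S1pr1) in 57, Tcf7 in 45 and Lef1 in 38. Of Ccr7, S1pr1, Klf2, Lef1 and Tcf7, 56 cells (43.4%) held 3 or more, 13 held none, and 4 held all 5.

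Other genes of resting T cells were detected less widely. The repressor Bach2 was detected in 25 cells, with a median of 86.4 cpm where detected, the actin crosslinker Actn1 in 19, Dapl1 in 9, Igfbp4, a gene of naive cells, in 6 and Nsg2 in 4. In the Foxp3 cells Bach2 was detected in 1 of 19 and in 24 of 110 others (log2 ratio -2.90), Lef1 in 4 and 34 (-1.95), and Igfbp4 and Dapl1 in 0. Ccr7 was detected in 9 of 19 Foxp3 cells and 66 of 110 others, at pooled levels of 2866 and 2569 cpm, and Satb1 in 11 and 51 (log2 ratio -0.56). Among the cells without a lineage-defining factor, S1pr1 was detected in 52 of 82 (63.4%, 95% interval 52 to 73.8%) and Ccr7 in 48, beside 22 and 27 of the 47 cells with a factor.

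Il7r (chromosome 15, 9505788 to 9530176, minus strand) was detected in 34 cells (26.4%, 95% interval 19 to 34.8%), at 49.2 to 7575 cpm with a median of 685 cpm. It was detected in 8 of 19 Foxp3 cells and 26 of 110 others. Memory list genes ranged from common to rare in the set as a whole: the LIM protein gene Crip1 was detected in 75 cells, the IL-2 and IL-15 receptor chain Il2rb in 57, the scaffold gene Ahnak in 46, the factor Id2 in 37, Itgb1 in 34, S100a6 in 24, the chemokine receptor Cxcr6 in 13, S100a4 in 9, the survival gene Bcl2 and Ly6c2 in 5 each and Ly6c1 in 3. Il7r cells and the others both held a median of 2 of the 11 other list genes. Of the 7 that passed the filter, 1 was at least 2-fold higher beside Il7r, where 12.8% of all genes were. That gene was Id2 (log2 ratio 1.16), and Itgb1 lay at -1.01. The number was 0 without the cell with the most reads of each gene, where 4.02% of all genes were 2-fold higher, and 0 by the mean of log2 values, where 9.46% were. The anchors were not tested against each other.

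**Figure D4:**
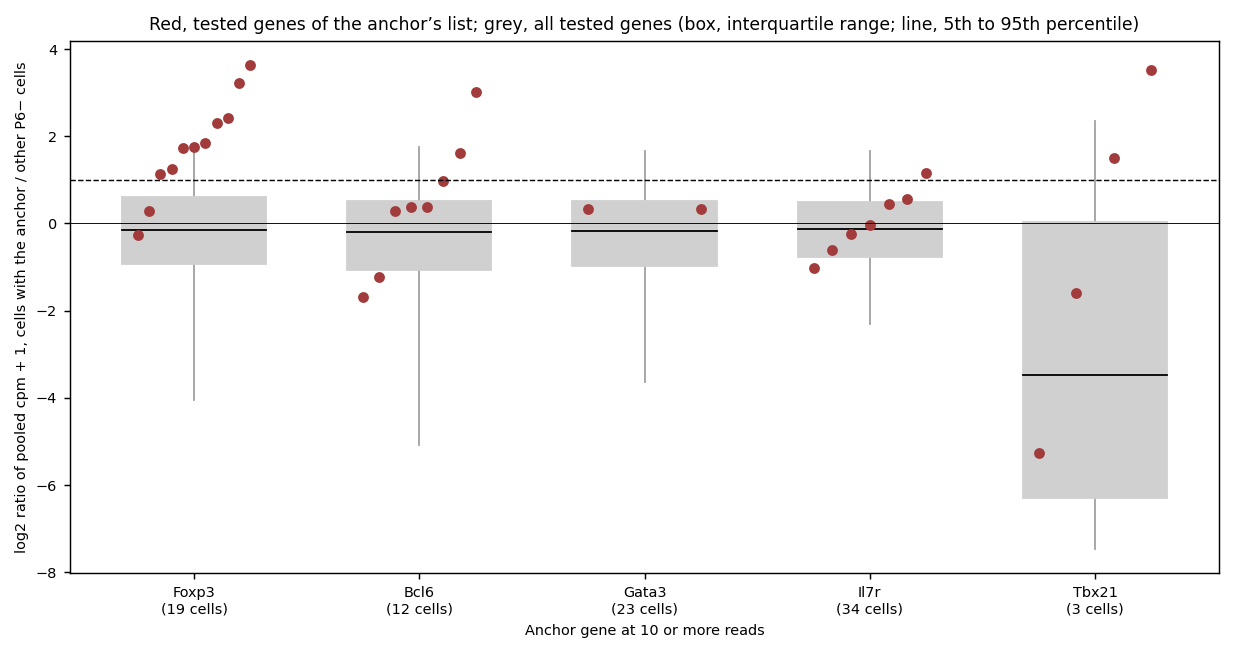
Log2 ratio of pooled cpm plus 1 (vertical) between cells with and without 10 or more reads of each of 5 anchors (horizontal, with the number of cells that hold it). Red points are the tested genes of the anchor's list, grey boxes the interquartile range and grey lines the 5th to 95th percentile of all tested genes, and the dashed line marks a log2 ratio of 1; 9 of 11 red points lie above it for Foxp3 (8 of 10 without Itgae, which met the filter only with its Foxp3 cells), 2 of 8 for Bcl6, 1 of 7 for Il7r, 2 of 4 for Tbx21, and 0 for Gata3.

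Early-response genes of receptor signalling were detected in many cells. Junb was detected in 88.4% of cells, the NF-κB inhibitor Tnfaip3 in 70 cells, the phosphatase Dusp1 in 54 and the nuclear receptor Nr4a1, a gene induced by T cell receptor signals, in 50. Nr4a1 with at least 2 other genes of the list was found in 49 cells (38%, 95% interval 29.6 to 46.9%), so that this call is nearly the detection of Nr4a1. Cells with Nr4a1 held a median of 4 of the other 13 genes and cells without it a median of 3. Egr1 was detected in 10 cells, Fos in 11, Cd69 in 26 and Egr2 in 1. The cells had been held at 37°C with dasatinib before the sort, and the part of this step in the values was not tested. Cycling cells were rare: Mki67 was detected in 1 cell, with 3527 reads, which held 7 of the 12 cycle genes, and the title of this cell bore prefix P3, so that the share without that prefix was 0. Stmn1 was detected in 9 cells and Top2a in 6.

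Cytotoxic genes were few as well. Gzmb was detected in 8 cells (6.20%, 95% interval 2.72 to 11.9%), of which 3 held at least 2 other genes of the list, Fasl in 12, Ctsw and Klrg1 in 10 each, Prf1 in 1 and Gzma and Gzmk in 0. All 3 cells that met the rule also met the memory rule, and 2 were Treg cells. The titles of 2 of the 3 bore prefix P2, and the share that met the rule was 2.33% with that prefix and 0.855% without it.

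The cells carried 8 plate prefixes with 11 to 24 cells each. A prefix is taken from the title of a cell and is read here as the name of a plate, which no label states, and prefix P6 has nothing to do with the peptide of that name. The Treg program was found under all 8, from 5% under P4 to 27.3% under P6, and the memory program under all 8, from 9.09% to 25%. TFH was found under 5. For no program or gene examined were the intervals of any pair of prefixes apart, at these numbers of cells. The detection of Cd4 ranged from 25% to 41.7% and that of Ccr7 from 35.7% to 75%.

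**Figure D5:**
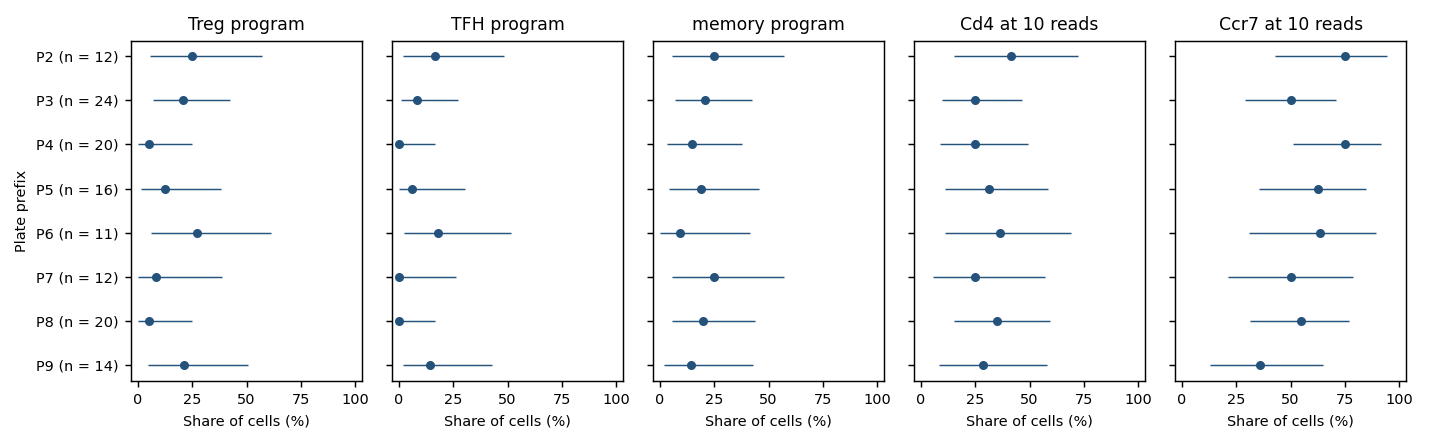
Share of P6- cells in percent (horizontal, with 95% exact binomial interval) with 3 programs and with Cd4 or Ccr7 at 10 or more reads, for each of the 8 plate prefixes (vertical, with the number of cells). The Treg share lies between 5% and 27.3% and the intervals of all prefixes overlap in each panel.

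The 32 P6+ cells of the series, from the same immunization, are given only beside these shares. They all bore plate prefix P6, together with 11 of the P6- cells, and were deeper, with a median of 1731608 reads and 4396 genes. The median mitochondrial share was 1.29% in the P6+ cells, 3.56% in all P6- cells and 6.45% in the 11. The summed level of the B cell list had a median of 733 cpm in the P6+ cells and 2.16 cpm in the P6- cells. Shares over all P6- cells thus differ from the P6+ shares in prefix, depth and these values as well as in group. No test was made. The Treg program was called in 11 of 32 P6+ cells (34.4%, 95% interval 18.6 to 53.2%), in 19 of the P6- cells (14.7%) and in 3 of the 11 P6- cells of that prefix. The cytotoxic program was called in 10 of 32 P6+ cells (31.2%, 95% interval 16.1 to 50%), in 3 of the P6- cells (2.33%, 95% interval 0.482 to 6.65%) and in 0 of the 11. Gata3 was detected in 19 of 32 P6+ cells (59.4%, 95% interval 40.6 to 76.3%) beside 17.8% of P6- cells and 2 of the 11. With every cell thinned to 500000 reads, the Treg program was called in 10 of the P6+ and 19 of the P6- cells and the cytotoxic program in 10 and 2, and Gata3 was detected in 17 and 22. Ccr7 was detected in 14 of 32 P6+ cells (43.8%, 95% interval 26.4 to 62.3%), with a pooled level of 823 cpm beside 2612 cpm in the P6- cells and 3231 cpm in the 11, of which 7 held it. Thinned, Ccr7 was detected in 14 P6+ and 66 P6- cells. TFH was called in 6 of 32, memory in 13 and receptor signal in 12, where 9, 24 and 49 of the P6- cells were called. Within prefix P6 the P6- cells called were 2 for TFH (18.2%, beside 18.8% of the P6+ cells), 1 for memory and 4 for receptor signal. Thinned, the P6+ cells called were 5, 13 and 12 and the P6- cells 9, 23 and 47.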

How the data were processed

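The authors mapped paired reads with STAR 2.6.0a to GRCm38 with Ensembl annotation, after FastQC 0.11.7 and with SAMtools 0.1.19 for sorting, and deposited raw read counts per gene name for 176 cells, neither normalized nor filtered, with the tetramer sign of each cell. The sign matched the label of all 176. The members and gene lists were chosen with earlier results of these data known.

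Here, rows of the same name were averaged (53647 rows, 53546 names), and cells were filtered as stated at 500000 reads, 2000 genes and 10% mitochondrial reads, which left 129 of 144 P6- cells. The mapping rate, a further filter of the study, was not used here. The study's receptor table lists 97 P6- cells as passing its filters, so the set described here holds cells that the study left out. No doublet caller was run, since each well received 1 sorted cell. Levels are counts summed over cells per 1000000 summed reads (cpm), without correction for gene length, so levels are not compared between genes. Ratios used a pseudocount of 1 cpm. Shares carry Clopper-Pearson 95% intervals, and the limit for a count of 0 was set at 3 counts. Named were all list genes, the 15 genes of highest pooled cpm (without mitochondrial, ribosomal protein, receptor segment and predicted genes), the 15 highest among those detected in 20 to 50% of cells, and the 5 highest ratios per anchor among genes with 20 cpm that at least every other anchor cell held. A few list genes, and the naive and TH17 program calls that need them, are not reported here. Gene positions came from GENCODE annotation of GRCm38, and junction sequences from the study's receptor table. For the Foxp3 comparison, counts of 4629 genes were simulated with the same mean share of reads in all cells of a group. All 200 altered genes were given their true sign, and 91.0% came within a log2 distance of 0.25 of the value set. No unaltered gene came out at least 2-fold higher, whereas 16.2% of all genes did in the real cells. Such counts lack the spread between cells, so they check the arithmetic only and not how far the ratios vary. Scaling alternatives used edgeR 4.0.16 (TMM) and DESeq2 1.42.0 under R 4.3.3, applied to pooled sums without a test. Python 3.11.15, numpy 2.4.6, pandas 2.3.3, scipy 1.17.1 and matplotlib 3.10.9 were used.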

Additional observations from a re-analysis of the deposited data

How the results depend on the processing

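Of the alternatives to the shares of cells with a program, 17 took the share out of its interval and the others did not. With detection at 1 read, the share was 34.1% for Treg, 20.2% for TH1, 35.7% for TH2, 41.1% for TFH, 64.3% for memory, 89.9% for receptor signal and 28.7% for cytotoxic. With values imputed by ALRA (161 cells, 26035 genes, 11 components), it was 17.1% for TH2, 38.8% for memory and 66.7% for receptor signal. With 2 list genes required it was 7.75% for TH2, and with 5 it was 0% for TH2 and cytotoxic, 3.10% for TFH, 9.30% for memory and 24% for receptor signal. Without plate prefix P3 the cycling share was 0%, because that prefix held the only such cell. The Treg share left its interval only with detection at 1 read. All 19 Foxp3 cells met the rule as reported, so this share followed the detection of Foxp3 and tells little of the list.

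Of list genes at least 2-fold higher beside their anchor, no filter on low counts gave 5 of 11 for Tbx21, 2 of 10 for Gata3 and 4 of 14 for Bcl6, beside 5.15%, 8.86% and 9.24% of all genes. Without the cell with the most reads of each gene there were 0 for Tbx21, 1 for Bcl6 and 0 for Il7r, beside 2.33%, 4% and 4.02% of all genes. The mean of log2 values gave 0 of 7 for Il7r, beside 9.46% of all genes, and 3 of 8 for Bcl6, beside 32.4%. Without cells of fewer than 3 identity genes, an alternative chosen after seeing the data, there was 1 of 2 for Gata3, beside 12.7% of all genes. For Foxp3 the number stayed between 8 and 11 in these settings, of 11 genes (10 of 16 with no filter, 8 of 10 with the filter on the other cells), while the share of all genes ran from 4.97% to 19.1%, and between 7 and 9 of 11 when each plate prefix was left out in turn, also chosen after seeing the data. The P6+ share with receptor signal was lower than the P6- share in all reads and was higher, by 1.07 points with cells thinned to 500000 reads and by 1.14 points against P6- cells of the same prefix. The cause of these changes was not tested. No pairing of animals or replicates was possible because the labels number none that the groups share. Foxp3 cells occurred under all 8 plate prefixes, and their ratios were not taken within prefixes. Reads per cell set what can be detected, and a program not called in a cell is not shown to be absent.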

Other observations

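Apart from the lists, a few abundant genes were detected in all or most P6- cells and many others in a fraction of them. With mitochondrial, ribosomal protein, receptor segment and predicted genes left out, the 15 genes with the most reads included the MHC class I genes H2-K1 and H2-D1, the actin genes Actb and Actg1, the ubiquitin gene Ubb, the translation factor Eef1a1, Tmsb4x (thymosin β4), H3f3b, Ddx5, Shisa5 and the 18S RNA Rn18s. H2-K1 and H2-D1 were detected in every cell, at pooled levels of 11767 and 11613 cpm. Junb, Ptprc, Ccr7 and Tnfrsf4, described above, completed the 15, and Ccr7 and Tnfrsf4 stood among them although detected in 75 and 88 cells.

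Among genes detected in 20 to 50% of the cells, those with the most reads were Dusp1 (54 cells) and Nr4a1 (50 cells), the NF-κB inhibitor Nfkbia (57 cells), Tnfsf8 (57 cells) and, in 54 to 64 cells each, Gramd3, Tcp11l2, Sdcbp, Cnn2, Dgat1, Eef2, Ucp2, Lcp1, Kmt2e, Atp1b3 and Atp5b. The last 11 belong to no list used here and include genes of translation (Eef2), mitochondria (Ucp2, Atp5b), the actin skeleton (Lcp1, Cnn2) and lipid synthesis (Dgat1). Gramd3 was detected in 64 P6- cells (49.6%) and 9 of 32 P6+ cells, and Cnn2 in 60 P6- cells (46.5%) and 29 of 32 P6+ cells. In the 11 P6- cells of the prefix that all P6+ cells bore, Gramd3 was detected in 5 and Cnn2 in 6.

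Nfkbia was also among the 5 highest ratios beside Gata3, detected in 16 of 23 Gata3 cells and 41 of the others (log2 ratio 1.96), with Nup98, Serp1, Fnbp1 and Capza2. Beside Bcl6 they were Med8, Cdk5rap3, Faf2, Mcm2 and Prkca, between 2.89 and 3.29. Beside Il7r they were Crem, H2aj, Syf2, Lars2 and AW112010, between 1.11 and 1.21. In the anchor cells, 1 cell held 39.2 to 48.2% of the reads of each Bcl6 gene and 14.6 to 48.9% for Il7r. Med8 was detected in 6 Bcl6 cells and 4 others, and met the filter only with its Bcl6 cells. The choice required detection in the anchor cells and set no such limit on the others, which favours high ratios. The 5 beside Tbx21, with 3 cells, were Trappc12, Anapc16, Themis, Cbwd1 and Rundc3b, with 60.4 to 96.4% of the reads of each in 1 cell. Each was detected in 2 of the 3 Tbx21 cells, and in 1 (Trappc12) to 9 (Themis) other cells. Themis met the filter only with its Tbx21 cells, and the others were under it. Their high ratios thus tell little beyond the way the genes were chosen. None of the genes named here beside an anchor belonged to that anchor's own list.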
